A study of Mus musculus with 20 samples.

Results

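The 8 genes described here, Upf1, Upf2, Upf3a, Upf3b, Smg1, Smg5, Smg6 and Smg9, encode core factors of nonsense-mediated mRNA decay in the mouse. They were chosen by name and matched by symbol to the Ensembl identifiers of the count matrix, giving 8 of 37620 genes and 602 of 554616 splice junctions. Smg9 is listed there under the older symbol 1500002O20Rik. Of the 602 junctions, 186 were in the annotation, 120 joined 2 annotated ends in an unlisted combination and 296 had at least 1 end outside the annotation.

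RNA was from bulk bone marrow of mice that had received transgenic donor marrow, and groups differed in the induced transgene and in the infusion. The transgene was U2AF1(S34F), carrying the myelodysplastic syndrome hotspot substitution in the splicing factor that recognises the AG at the 3′ end of introns, or U2AF1(WT). Both were doxycycline-inducible through an rtTA transgene that every donor carried, so recipients of both genotypes ate doxycycline chow (625 ppm) for 7 days, after more than 6 weeks of engraftment, and on the last 5 days received sudemycin D6 or vehicle through a jugular catheter. Each of the 4 groups, vehicle U2AF1(WT), sudemycin U2AF1(WT), vehicle U2AF1(S34F) and sudemycin U2AF1(S34F), held 5 libraries of ribosomal-RNA-depleted total RNA. Sudemycin D6 is a synthetic compound whose target is SF3B1, the splicing factor that helps to recognise the intron branch point. The labels give neither the age of the mice nor which libraries shared a marrow donor, and the study's methods give ages only as ranges. Per those methods, marrow of several donors was pooled and given to several recipients of each genotype. Libraries of a genotype may therefore share donors, so p-values measure the spread between these libraries and not that between donor pools.

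Nonsense-mediated decay removes mRNAs on which a ribosome stops upstream of an exon junction complex, and many mis-spliced transcripts carry such a premature stop. The RNA helicase UPF1 binds the terminating ribosome, and UPF2 with UPF3A or UPF3B links it to the exon junction complex downstream. The kinase SMG1, held in check by SMG8 and SMG9, then phosphorylates UPF1, and phosphorylated UPF1 recruits SMG6, an endonuclease that cuts the mRNA near the stop, and SMG5, which brings in deadenylation and decapping enzymes. Several of the factors are themselves encoded by transcripts that the pathway degrades.

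Gene counts summed to between 41145892 and 62138138 per library (median 51836276), and all 8 genes passed the filter on low counts in every comparison. Sex-linked transcripts separated the genotypes. Xist, the RNA of the inactive X chromosome, lay between 859 and 1585 CPM (counts scaled to library size) in the 10 U2AF1(WT) libraries and reached at most 0.146 CPM in the 10 U2AF1(S34F) libraries, while the Y-linked gene Ddx3y had 0 reads in all U2AF1(WT) libraries and 39.8 to 76.1 CPM in U2AF1(S34F) libraries. Genotype and sex therefore cannot be told apart in these samples, which bears most directly on Upf3b, an X-linked gene. The summed level of 6 neutrophil markers, all detected, was 30008 to 34106 CPM in vehicle U2AF1(WT) and 42262 to 68480 CPM in vehicle U2AF1(S34F) libraries, and 28054 to 48641 CPM against 37389 to 57102 CPM under sudemycin D6. Of these 6 markers, 3 passed as higher in U2AF1(S34F) marrow under vehicle and 1 under sudemycin D6, beside 19.7% and 17.2% of all genes. In vehicle the mean of S100a8 went from 10885 to 26282 CPM, and that of Elane from 396 to 383 CPM. The 4 B cell markers found, each detected in every group, summed to 10.9 to 111 CPM in U2AF1(WT) and 6.02 to 85.2 CPM in U2AF1(S34F) libraries. With both mutant and drug, all 4 passed as lower than in vehicle U2AF1(WT) marrow, as did the 3 T cell markers, whose sums were 11.1 to 18.5 CPM in vehicle U2AF1(WT) and 8.6 to 10.7 CPM in sudemycin U2AF1(S34F) libraries. Of all genes, 25.1% passed as lower in that comparison. The 3 stem and progenitor markers passed as lower for the drug in U2AF1(S34F) marrow, with sums of 117 to 150.3 CPM under vehicle and 80.7 to 111 CPM under sudemycin D6, and 1 of the 3 did in U2AF1(WT) marrow. The drug passed 5.85% of all genes as lower in U2AF1(S34F) and 1.89% in U2AF1(WT) marrow. Between genotypes, 1 of 3 monocyte markers passed as lower in vehicle, and 1 as higher and 1 as lower under sudemycin D6. Of 3 stroma markers, 1 was higher and 1 lower in vehicle, and 1 was lower under sudemycin D6. Of 5 erythroid markers, 0 passed in vehicle and 1 was lower under sudemycin D6. The shares of all genes passing as lower were 19.8% and 19.6%. In bulk marrow, fewer cells of a type and less RNA per cell cannot be told apart, and the part of cell composition in the differences below was not tested.

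All 8 factors were expressed in every library. Compared per length of annotated exons, as FPKM (CPM per kilobase of exon), Smg1 was highest at 26.0 ± 2.1 (SD, n = 20 libraries), followed by Upf1 at 22.3 ± 2.2, Smg5 at 17.9 ± 1.1, Upf2 at 17.4 ± 1.7, Smg9 at 16.3 ± 3.6, Upf3a at 13.8 ± 1.6, Smg6 at 7.42 ± 0.86 and Upf3b at 6.25 ± 0.83. Smg1 exceeded Upf1 in 19 of 20 libraries and Upf1 exceeded Smg5 in 20 of 20, whereas Smg5 exceeded Upf2 in 10 of 20, so that those neighbours in the order did not differ beyond their spread. Upf2 exceeded Smg9 in 15, Smg9 exceeded Upf3a in 16, Upf3a exceeded Smg6 in 20 and Smg6 exceeded Upf3b in 16 of the 20 libraries. The 2 UPF3 paralogues thus differed in level, with Upf3a above Upf3b on this scale.

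**Figure D1:**
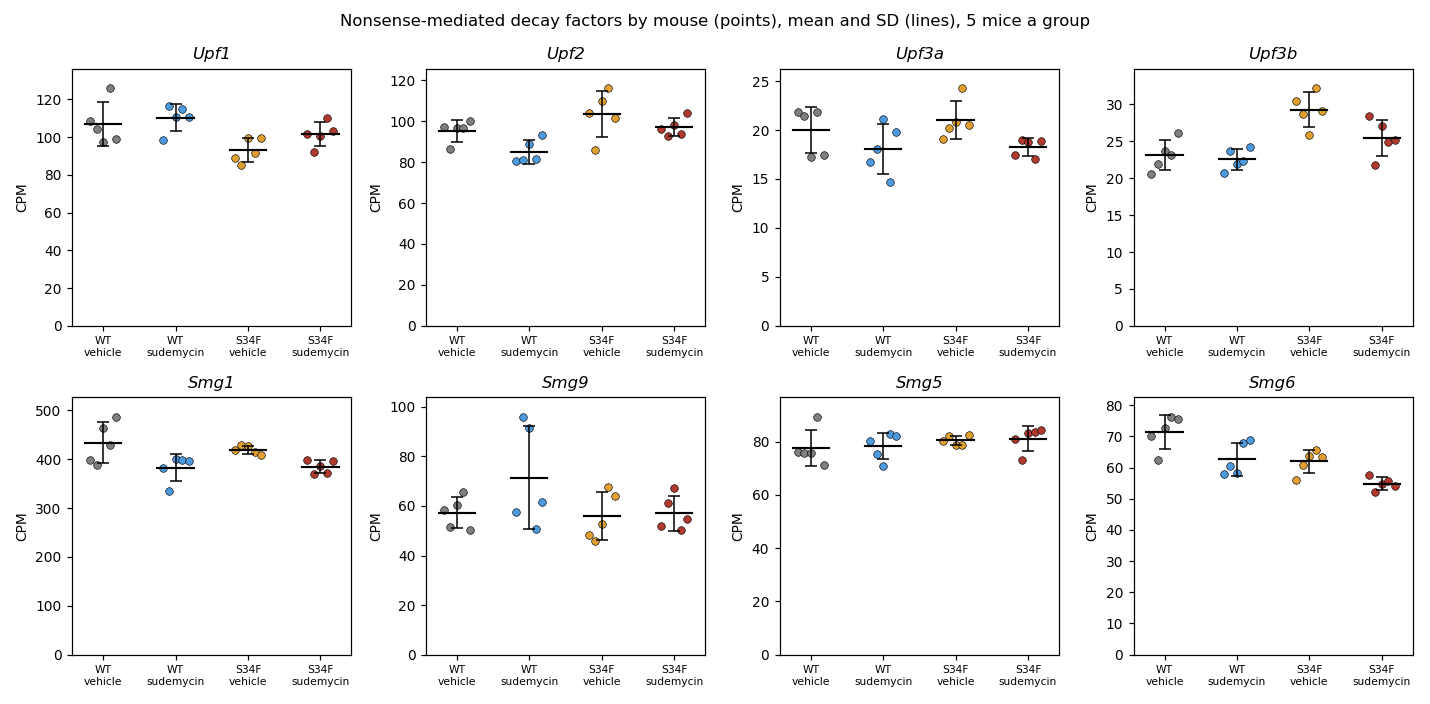
Normalised expression of the 8 nonsense-mediated decay genes in CPM (vertical axes, each starting at 0) in the 4 groups. Each point is 1 library and each bar shows the mean and SD of 5; Smg6 steps down from vehicle U2AF1(WT) (71.4 CPM) to sudemycin U2AF1(S34F) (54.8 CPM), whereas Smg5 stays level.

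The effect of the transgene was tested first in vehicle-treated marrow. With edgeR's quasi-likelihood test and Benjamini-Hochberg adjustment over all genes, at a false discovery rate (FDR) of 10%, 3 of the 8 genes passed: Upf3b was higher and Upf1 and Smg6 were lower in U2AF1(S34F) marrow. The same test passed 39.5% of all 14817 genes in this comparison, so 3 of 8 is close to the background; 19.7% of all genes passed as higher and 19.8% as lower. The median log2 fold change of the 8 was -0.011, beside 0.0021 over all genes.

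Upf1 (ENSMUSG00000058301, chr8:72855421-72877172, minus strand, mm9) encodes the helicase at the centre of the pathway. Its level was 97.4, 99.0, 104.1, 108.5 and 126.2 CPM in vehicle U2AF1(WT) libraries and 85.3, 88.6, 91.7, 99.3 and 99.4 CPM in vehicle U2AF1(S34F) libraries. The 2 highest U2AF1(S34F) libraries overlapped the lower end of the U2AF1(WT) range. The log2 fold change was -0.22 (SE 0.084, adjusted p = 0.0594). This call ended when any of 4 libraries was left out: vehicle U2AF1(WT) replicate 1 (adjusted p = 0.115) or 4 (0.149), or vehicle U2AF1(S34F) replicate 1 (0.126) or 3 (0.115). Under sudemycin D6 the 5 U2AF1(WT) libraries held 98.7, 110.8, 110.8, 115.0 and 116.4 CPM and the 5 U2AF1(S34F) libraries 92.1, 100.4, 101.8, 102.9 and 109.9 CPM. That difference was again negative at -0.16 (SE 0.068, adjusted p = 0.0985), at the edge of the threshold, and the call was lost in 8 of the 10 fits that left out 1 library, with adjusted p up to 0.256; it held only without sudemycin U2AF1(WT) replicate 6 or sudemycin U2AF1(S34F) replicate 10.

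Upf2 (ENSMUSG00000043241, chr2:5872515-5977749, plus strand), the adaptor between UPF1 and the UPF3 proteins, did not pass in any of the 5 comparisons. In vehicle-treated marrow the log2 fold change was 0.10 (adjusted p = 0.394). Its nearest approach to the threshold was under sudemycin D6, where the U2AF1(WT) libraries lay at 80.5, 81.3, 81.3, 88.7 and 93.3 CPM and the U2AF1(S34F) libraries at 92.8, 93.9, 96.0, 98.2 and 104.2 CPM. These groups touched in only 1 library on each side. The log2 fold change was 0.15 (SE 0.067) with an adjusted p of 0.106 by edgeR and 0.0694 by DESeq2.

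Upf3b (ENSMUSG00000036572, chrX:34631673-34650335, minus strand) encodes the UPF3 paralogue that binds the exon junction complex most strongly. Vehicle U2AF1(WT) libraries had 20.6, 21.9, 23.2, 23.7 and 26.1 CPM, and vehicle U2AF1(S34F) libraries 25.8, 28.7, 29.2, 30.5 and 32.3 CPM. Only the highest U2AF1(WT) and the lowest U2AF1(S34F) library crossed. The gene was 1.25-fold higher in U2AF1(S34F) marrow, a log2 fold change of 0.32 (SE 0.086, adjusted p = 0.0128), and the call held without any 1 of the 10 libraries. Under sudemycin D6 the ranges were 20.7 to 24.3 CPM and 21.9 to 28.4 CPM, and the difference of 0.14 did not pass (adjusted p = 0.235). Sums of reads over annotated Upf3b junctions gave a larger difference under sudemycin D6, 0.56 with an adjusted p of 0.00703, so that the 2 ways of counting this gene did not give the same call.

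Its paralogue Upf3a (ENSMUSG00000038398, chr8:13785615-13798538, plus strand) did not differ between genotypes at this depth, with log2 fold changes of 0.05 in vehicle (adjusted p = 0.703) and -0.02 under sudemycin D6 (adjusted p = 0.891).

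Smg1 (ENSMUSG00000030655, chr7:125274832-125387151, minus strand), the UPF1 kinase, did not pass between genotypes either. Its log2 fold change was -0.07 in vehicle-treated marrow (adjusted p = 0.571) and -0.03 under sudemycin D6 (adjusted p = 0.777). Smg9 (ENSMUSG00000002210, chr7:25184638-25207797, plus strand), the regulatory subunit of that kinase, held 57.2 ± 6.3 CPM (SD, n = 5) in vehicle U2AF1(WT) and 55.8 ± 9.7 CPM in vehicle U2AF1(S34F) marrow. In the sudemycin U2AF1(WT) group the 5 libraries lay at 50.6, 57.4, 61.4, 91.5 and 96.1 CPM. Replicates 8 and 9 of that group stood above every other library of the study, and the remaining 3 lay within the range of the other groups. The resulting genotype difference under sudemycin D6, -0.36 with an SE of 0.173, did not pass (adjusted p = 0.141). It passed in a model of all 20 libraries (adjusted p = 0.0918, edgeR), without sudemycin U2AF1(WT) replicate 6 (0.0929) and without replicate 10 of that group (0.0595), so this call depended on single libraries and on the model.

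Smg5 (ENSMUSG00000001415, chr3:88140182-88166259, plus strand), the adaptor for deadenylation and decapping, was the steadiest of the 8, with log2 fold changes from -0.0023 to 0.047 over the 5 comparisons. Smg6 (ENSMUSG00000038290, chr11:74739325-74977950, plus strand), the endonuclease, was lower in U2AF1(S34F) marrow under both infusions. In vehicle-treated marrow the U2AF1(WT) libraries had 62.5, 70.1, 72.7, 75.4 and 76.3 CPM and the U2AF1(S34F) libraries 56.1, 60.9, 63.4, 63.7 and 65.6 CPM. The lowest U2AF1(WT) library fell within the range of U2AF1(S34F). The log2 fold change was -0.22 (SE 0.077, adjusted p = 0.0407), and it no longer passed without vehicle U2AF1(WT) replicate 4 (adjusted p = 0.103) or vehicle U2AF1(S34F) replicate 1 (0.109). Under sudemycin D6 the U2AF1(WT) libraries had 57.9, 58.3, 60.6, 67.7 and 68.8 CPM and the U2AF1(S34F) libraries 52.1, 54.0, 54.7, 55.8 and 57.6 CPM, so the groups did not overlap. The difference was -0.23 (SE 0.067, adjusted p = 0.0243), and the call held without any 1 of the 10 libraries. Smg6 and Upf1 were the members that passed in the genotype comparison under sudemycin D6, 2 of 8, both lower, beside 36.8% of all genes, 19.6% passing as lower and 17.2% as higher.

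The effect of sudemycin D6 was tested within each genotype. In U2AF1(WT) marrow none of the 8 genes passed in edgeR or in DESeq2, and only Smg6 had an unadjusted p below 0.05 in edgeR. Its log2 fold change was -0.19 with an adjusted p of 0.371. The test passed 3.07% of all genes in that comparison, 1.89% as lower and 1.18% as higher. In U2AF1(S34F) marrow Smg6 passed, 1 of 8 beside 10.8% of all genes (5.85% as lower and 4.94% as higher), with a log2 fold change of -0.19 (SE 0.051, adjusted p = 0.0501). Without sudemycin U2AF1(S34F) replicate 6 that call was lost, and a model of all 20 libraries gave an adjusted p of 0.173. In the S34F libraries, Smg6 levels of 56.1 to 65.6 CPM under vehicle and 52.1 to 57.6 CPM under sudemycin D6 overlapped in 1 vehicle library.

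Upf3a, Upf3b and Smg1 missed the threshold in edgeR but passed it in DESeq2 in the same U2AF1(S34F) comparison. Upf3a libraries lay at 19.1, 20.2, 20.6, 20.8 and 24.3 CPM under vehicle and at 17.1, 17.5, 18.8, 18.9 and 19.0 CPM under sudemycin D6, without overlap. Its log2 fold change was -0.21 (SE 0.074), with an adjusted p of 0.108 in edgeR and 0.0722 in DESeq2. Smg1 libraries, at 408.4 to 428.1 CPM and 369.9 to 397.4 CPM, did not overlap either (log2 fold change -0.14, adjusted p = 0.142 in edgeR and 0.0156 in DESeq2). Upf3b gave -0.22, with an adjusted p of 0.119 in edgeR and 0.0924 in DESeq2. The medians over the 8 genes were -0.09 in U2AF1(WT) and -0.12 in U2AF1(S34F) marrow, beside 0.0040 and -0.0091 over all genes.

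Against vehicle U2AF1(WT), the sudemycin U2AF1(S34F) group carried both the mutant transgene and the drug. Smg6 showed its largest difference here, from 62.5 to 76.3 CPM down to 52.1 to 57.6 CPM, with no overlap and a log2 fold change of -0.40 (SE 0.071, adjusted p = 0.000846), and the call held without any 1 of the 10 libraries. Smg1 also passed: vehicle U2AF1(WT) libraries held 388.6, 399.3, 429.3, 463.3 and 487.3 CPM and sudemycin U2AF1(S34F) libraries 369.9, 370.9, 386.8, 395.7 and 397.4 CPM. Its log2 fold change was -0.19 (SE 0.079, adjusted p = 0.0657), and the call was lost without vehicle U2AF1(WT) replicate 3 (adjusted p = 0.142) or 5 (0.163), or without sudemycin U2AF1(S34F) replicate 6 (0.109), 9 (0.102) or 10 (0.116). The 2 calls of 8, both lower, stand beside 50.2% of all genes, 25.1% in each direction. Upf3b gene counts did not pass (log2 fold change 0.12, adjusted p = 0.273, edgeR). With sums of annotated junction reads, Upf3b passed as higher (0.33, adjusted p = 0.0425, edgeR). This comparison shares its libraries with the 4 above.

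Whether the drug effect differed by genotype was tested with an interaction term in the 20 libraries. None of the 8 genes passed in edgeR or DESeq2, none had an unadjusted p below 0.05 in edgeR, and the lowest adjusted p was 0.752 for Upf3b (difference of log2 fold changes -0.20, SE 0.118). The interaction passed 0.013% of all genes. For Smg6 the difference between the 2 drug effects was -0.01 (SE 0.098).

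**Figure D2:**
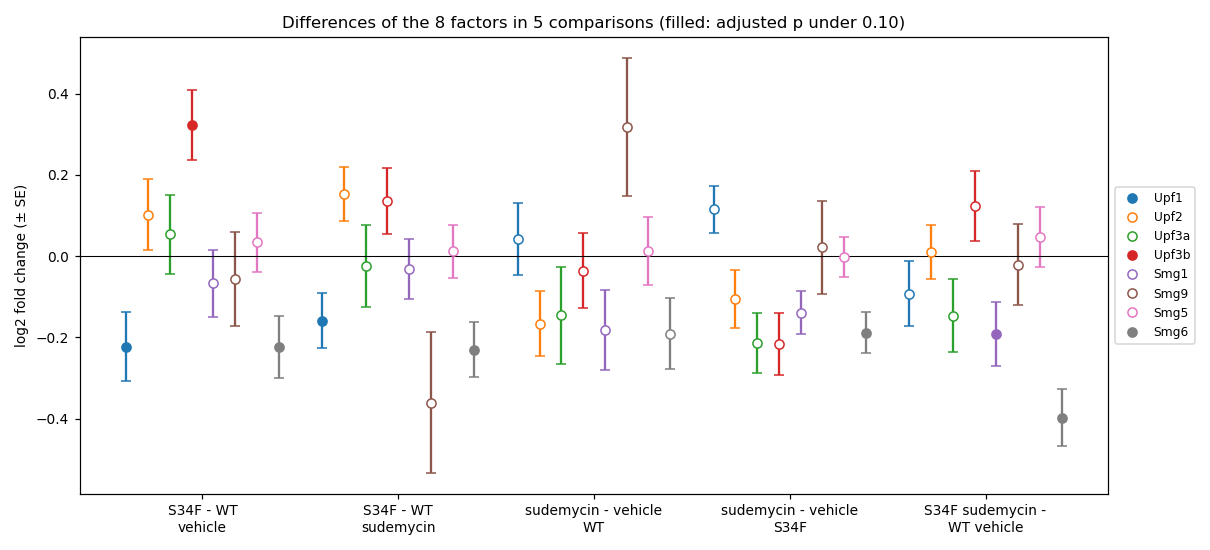
Log2 fold change (vertical axis) of the 8 genes, by colour, in each of the 5 comparisons (horizontal axis), with bars of 1 SE; filled points passed an FDR of 10% in edgeR. Smg6 is below 0 in all 5 comparisons, reaching -0.40, while Upf3b lies above 0 between genotypes.

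The other genes of the pathway were followed as a list of 30, grouped by role, all of which were tested. Between genotypes 9 were higher and 4 lower in vehicle-treated marrow, and 8 higher and 4 lower under sudemycin D6, which again is near the share of all genes that passed. In the exon junction complex, the mark left upstream of each splice junction, 4 of 7 genes passed in each genotype comparison, beside the 39.5% and 36.8% of all genes given above. The core subunits Magoh and Magohb were higher by 0.48 and 0.45 on the log2 scale in vehicle and by 0.53 and 0.60 under sudemycin D6, the helicase subunit Eif4a3 by 0.23 and 0.19, and Casc3, the peripheral subunit that stimulates decay, changed by -0.53 and -0.45. Magoh stood at 28.7 ± 3.8 CPM (SD, n = 5) in vehicle U2AF1(WT) and 40.4 ± 1.3 CPM in vehicle U2AF1(S34F) marrow, and Casc3 at 67.6 ± 11.7 and 47.4 ± 2.5 CPM.

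Among the partners of SMG1 and UPF1, Dhx34, a helicase that promotes UPF1 phosphorylation, was lower in both genotype comparisons (log2 fold changes -0.27 and -0.25), while Smg8 (0.23) and Ruvbl2 (0.23), a regulator and a chaperone of the kinase, were higher in vehicle, and their values under sudemycin D6 did not pass. Of the 3 termination factors, Etf1, which recognises stop codons, was higher by 0.42 and 0.44, and Gspt2, a GTPase partner of it, was higher by 0.56 under sudemycin D6. Decay genes that were higher included the decapping enzyme Dcp2 (0.31 and 0.33), Lsm1 (0.43 and 0.32) and, in vehicle, the exosome nuclease Dis3 (0.41). The decapping scaffold Edc4 was lower under sudemycin D6 (-0.26). Stau1, which recruits UPF1 in a related decay pathway, was lower in both (-0.32 and -0.18). Of the 3 cap and tail genes, the poly(A)-binding protein gene Pabpc1 was lower in vehicle (-0.41) and the cap-binding gene Ncbp2 was higher under sudemycin D6 (0.39).

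The drug changed few of these 30 genes. Ncbp1, the large subunit of the nuclear cap-binding complex, was higher in both genotypes. It rose from 70.9 ± 5.1 to 89.1 ± 2.8 CPM (SD, n = 5) in U2AF1(WT) marrow (log2 fold change 0.33, adjusted p = 0.0385) and from 69.2 ± 1.7 to 85.2 ± 2.5 CPM in U2AF1(S34F) marrow (0.29, adjusted p = 0.00397, edgeR). Its ranges did not overlap in either genotype. Eif4a3 was also higher in U2AF1(S34F) marrow (0.16, adjusted p = 0.0719), and the counts of 1 and 2 of 30 stand beside 3.07% and 10.8% of all genes. With both the mutant and the drug, 14 were higher and 4 lower, Rbm8a (0.17), Xrn1 (0.19) and Dcp1b (-0.22) among them, beside 50.2% of all genes, 25.1% in each direction. No member of the list passed the interaction test.

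A second list held 11 genes whose transcripts the pathway is known to clear, several of which are stress-response genes that also change by transcription. None passed as higher in any of the 5 comparisons. Some means were higher, as for Gadd45g with the drug in U2AF1(WT) marrow (19.3 to 21.9 CPM). Between genotypes 6 were lower in vehicle and 6 under sudemycin D6, Gadd45a, Gadd45g, Atf3, Atf4 and Ddit3 in both, with Snhg15 (log2 fold change -0.51) added in vehicle and Gadd45b (-0.42) under sudemycin D6. Of all genes, 19.8% and 19.6% passed as lower in these comparisons. The drug lowered Atf3, Atf4 and Ddit3 in U2AF1(WT) marrow and Gadd45a and Ddit3 in U2AF1(S34F) marrow, and 8 of 11 were lower with both, Snhg1 (-0.30) included. The counts of 3, 2 and 8 stand beside 1.89%, 5.85% and 25.1% of all genes passing as lower. Atf3 moved furthest: it stood at 68.5 ± 16.2 CPM in vehicle U2AF1(WT), 12.9 ± 3.2 in sudemycin U2AF1(WT), 4.77 ± 1.15 in vehicle U2AF1(S34F) and 4.78 ± 1.30 CPM in sudemycin U2AF1(S34F) marrow. Atf3 was the member of this list that passed the interaction test, with a drug effect 2.38 higher on the log2 scale in U2AF1(S34F) marrow (SE 0.301, adjusted p = 0.000994, edgeR). The median of the 11 was -0.51 in vehicle between genotypes and -0.34 for the drug in U2AF1(WT) marrow, beside 0.0021 and 0.0040 over all genes.

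**Figure D3:**
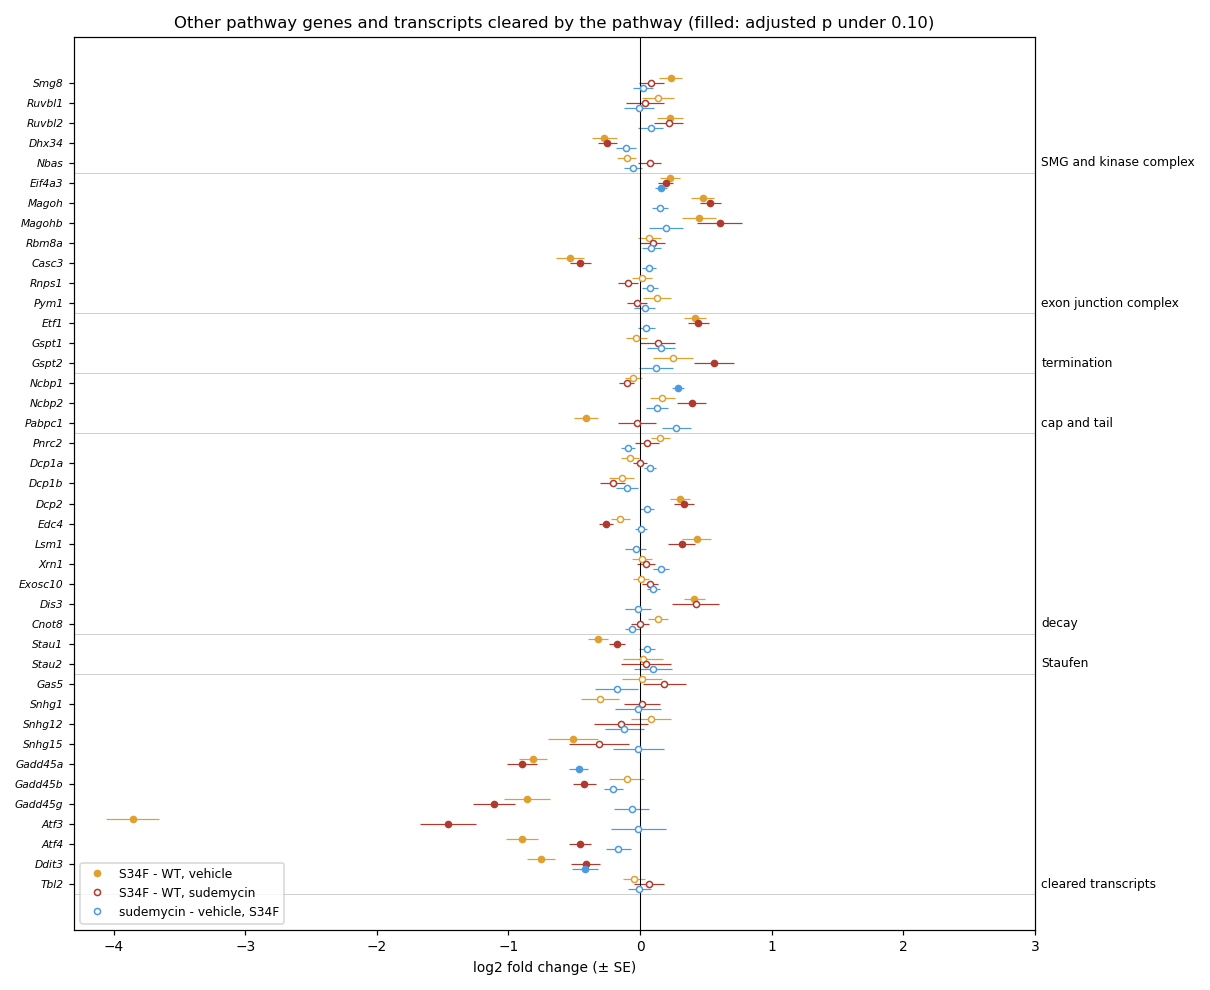
Log2 fold changes (horizontal axis) of the pathway genes outside the 8 and of transcripts the pathway clears, 1 row per gene, grouped by role, for genotype in vehicle, genotype under sudemycin D6 and the drug in U2AF1(S34F) marrow, by colour, with bars of 1 SE. Filled points passed an FDR of 10%; Magoh, Magohb and Etf1 lie right of 0 and Casc3 and Atf3 (-3.85) left of 0 for genotype.

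Splicing of the 8 genes was examined next, since U2AF1 and SF3B1 both act at the 3′ splice site. The stretches below are the alternative parts that recurred in these libraries, shown because the read counts that follow rest on them. They are from the mm9 genome (NCBIM37), written in the direction of the gene, with the alternative bases in capitals and neighbouring genomic sequence in lower case. The capitals are a 33-base extension between both donor sites of Upf1 (window chr8:72863869-72863937, minus strand), the 3 bases between tandem acceptors of Upf2 (chr2:5967920-5967964, plus strand), the 39-base cassette exon of Upf3b (chrX:34639049-34639123, minus strand) and a 58-base exon of Smg1 absent from the annotation (chr7:125361222-125361315, minus strand).
Upf1: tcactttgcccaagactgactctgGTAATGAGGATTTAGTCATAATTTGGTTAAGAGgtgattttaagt
Upf2: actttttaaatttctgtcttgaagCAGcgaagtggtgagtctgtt
Upf3b: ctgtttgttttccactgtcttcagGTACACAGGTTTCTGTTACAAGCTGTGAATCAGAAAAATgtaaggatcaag
Smg1: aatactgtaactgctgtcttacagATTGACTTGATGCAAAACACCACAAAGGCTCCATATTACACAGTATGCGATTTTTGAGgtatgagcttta

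The Upf1 extension and the Upf3b exon kept the reading frame, adding 11 and 13 codons without a stop. The Smg1 exon shifted the frame and brought a TGA stop into frame at base 8 of the insert, after 86 coding bases of the first exon. Such a transcript has its stop far upstream of the remaining exon junctions, which is the textbook configuration that the pathway degrades. In the data it was a minor but regular form of Smg1 mRNA.

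Inclusion of the Smg1 exon was calculated as the mean of the reads of its 2 flanking junctions over that mean plus the reads that joined the first exon directly to the next. Vehicle U2AF1(WT) libraries gave 0.154, 0.205, 0.232, 0.244 and 0.275. Sudemycin U2AF1(WT) libraries gave 0.233, 0.235, 0.256, 0.271 and 0.348. Vehicle U2AF1(S34F) libraries gave 0.258, 0.269, 0.309, 0.309 and 0.434, and sudemycin U2AF1(S34F) libraries 0.283, 0.328, 0.345, 0.382 and 0.448. The group means were ordered as listed, from 0.222 ± 0.045 to 0.357 ± 0.062 (SD, n = 5), and the first and last group did not overlap. Skipping reads numbered 120 to 235 and reads of either flanking junction 29 to 135 per library.

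**Figure D4:**
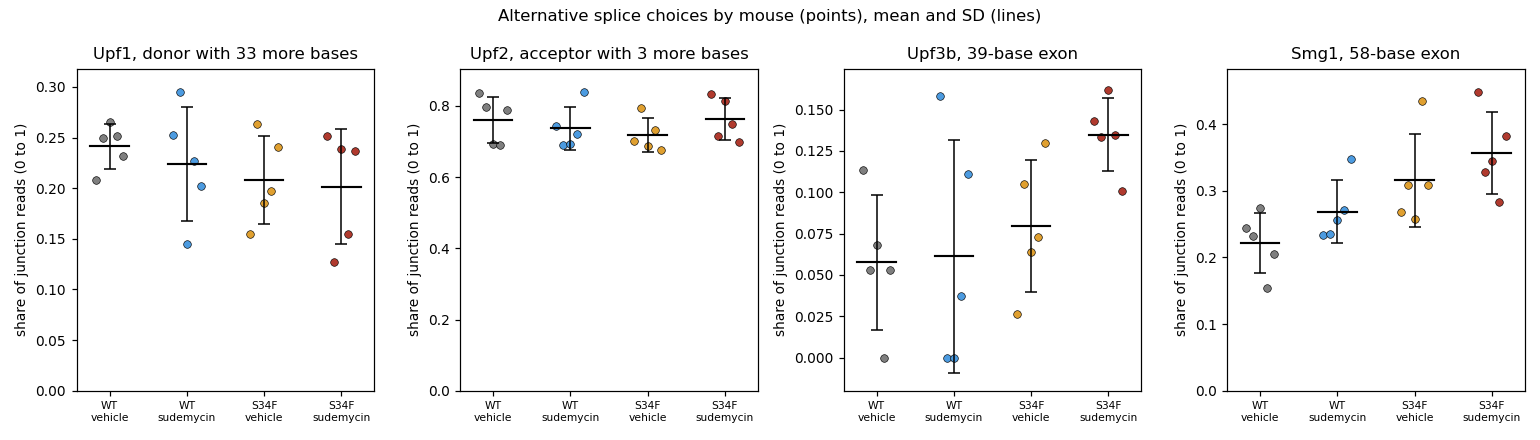
Share of reads (vertical axis) for 4 alternative stretches in the 4 groups, 1 point per library with mean and SD: the 33-base Upf1 extension, the Upf2 acceptor with 3 more bases, the 39-base Upf3b exon and the unannotated 58-base Smg1 exon. The Smg1 exon goes from a mean of 0.222 in vehicle U2AF1(WT) to 0.357 in sudemycin U2AF1(S34F), while the groups of the Upf1 extension overlap.

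This exon was taken up after its junction values had been seen, so the following p-values describe a pattern already noticed. A 2-sided exact permutation test over libraries gave p = 0.0238 for genotype in vehicle (difference 0.094), 0.0397 for genotype under sudemycin D6 (0.088), 0.167 for the drug in U2AF1(WT) marrow, 0.349 for the drug in U2AF1(S34F) marrow and 0.00794 for mutant with drug against vehicle U2AF1(WT) (0.135), the last being the smallest p that 5 against 5 libraries allow. The second of these exact permutation values rose above 0.05, to at most 0.0794, when any of 7 of the 10 libraries was left out; it stayed below 0.05 without sudemycin U2AF1(WT) replicate 12 or sudemycin U2AF1(S34F) replicate 6 or 10. Adjusted over the 5 comparisons these exact permutation values became 0.0595, 0.0661, 0.208, 0.349 and 0.0397. Across all junction shares tested genome-wide, the junctions on both sides of the exon passed for mutant with drug (adjusted p = 0.0735 and 0.0771, quasi-likelihood ratio test) and in no other comparison. Smg1 gene counts, as given above, passed as lower in that same comparison (log2 fold change -0.19) and not between genotypes. For the drug the log2 fold change was -0.18 in U2AF1(WT) marrow (adjusted p = 0.460, edgeR). In U2AF1(S34F) marrow it was -0.14 (adjusted p = 0.142 in edgeR and 0.0156 in DESeq2). Whether inclusion of this exon bears on the level of Smg1 was not tested.

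The Upf1 extension, in the helicase region of the coding sequence, was used in 0.241 ± 0.022 of reads in vehicle U2AF1(WT), 0.224 ± 0.056 in sudemycin U2AF1(WT), 0.208 ± 0.043 in vehicle U2AF1(S34F) and 0.202 ± 0.057 in sudemycin U2AF1(S34F) libraries (SD, n = 5). The longer, annotated donor was thus the minor form and the shorter, unannotated donor the major form in each group. The groups overlapped and no comparison passed (adjusted p from 0.670 to 0.992). It was 1 of 15 pairs of neighbouring donor or acceptor sites tested in the 8 genes, of which none passed in any comparison in the quasi-likelihood ratio test or in limma and 1 had an unadjusted p below 0.05 in the genotype comparison under vehicle. Of all such pairs, 1.03% passed between genotypes in vehicle and 1.37% under sudemycin D6, 0.16% for the drug in U2AF1(WT) and 0.17% in U2AF1(S34F) marrow, and 2.02% with both. The Upf2 tandem acceptor, where the choice adds or removes 3 bases, used the upstream site in 0.761 ± 0.065, 0.737 ± 0.061, 0.718 ± 0.048 and 0.763 ± 0.060 of reads in the same order of groups, and did not pass either.

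Events with all ends annotated, which cover exon skipping, alternative splice sites and the like, were tested as the share of reads supporting inclusion, at an FDR of 10% and a difference above 1 percentage point. In vehicle-treated marrow 2 of 89 events in the 8 genes passed between genotypes (2.22% of all events), under sudemycin D6 1 of 81 (2.48%), for the drug 0 of 77 in U2AF1(WT) (0.64%) and 0 of 92 in U2AF1(S34F) marrow (1.31%), and with both mutant and drug 4 of 84 (5.06%). Unadjusted p-values below 0.05 numbered 9, 8, 4, 6 and 10 in the same order in the quasi-likelihood ratio test. Limma on the same events passed none in any comparison, with 4, 3, 3, 4 and 5 unadjusted p-values below 0.05. None of 115 events passed the interaction test, 5 having an unadjusted p below 0.05 in the quasi-likelihood ratio test, and 0% of all events passed.

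The events that passed in Smg1 and Smg9 concerned exons included in nearly every read. In vehicle U2AF1(WT) libraries the Smg9 exon at chr7:25199958-25200069 was skipped by 0 to 12 reads per library, against 566 to 753 inclusion reads, whereas in the 5 vehicle U2AF1(S34F) libraries 1 skipping read was seen in total. The difference in inclusion was 0.016 (adjusted p = 0.0621) and 0.015 for mutant with drug (adjusted p = 0.0420). The Smg1 exon at chr7:125300374-125300483 was skipped by 0 to 13 reads in vehicle U2AF1(WT) and by none in vehicle U2AF1(S34F) libraries, a difference of 0.024 (adjusted p = 0.0177). The Smg1 exon at chr7:125350315-125350528 was skipped by 1 to 13 reads in sudemycin U2AF1(S34F) and by none in sudemycin U2AF1(WT) libraries, a difference of -0.019 (adjusted p = 0.0123). With both mutant and drug, the Smg9 exon at chr7:25192540-25192652 (0.022, adjusted p = 0.0534) and the Smg1 exon at chr7:125289765-125289915 (-0.011, adjusted p = 0.0942) also passed. Leaving out 1 library ended several of these calls. The first Smg9 exon was lost between genotypes without vehicle U2AF1(WT) replicate 1 or vehicle U2AF1(S34F) replicate 7 (adjusted p up to 0.174), and for mutant with drug without vehicle U2AF1(WT) replicate 1 or sudemycin U2AF1(S34F) replicate 2, 6, 10 or 12 (up to 0.191). The Smg1 exon that passed under sudemycin D6 was lost without sudemycin U2AF1(S34F) replicate 9 (0.113). The second Smg9 exon was lost without vehicle U2AF1(WT) replicate 2 or 4 or sudemycin U2AF1(S34F) replicate 2, 9, 10 or 12 (up to 0.293), and the last Smg1 exon in 9 of 10 such fits (up to 0.302), holding only without sudemycin U2AF1(S34F) replicate 6. Skipping thus rested on at most 19 reads in any library for these 5 exons.

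The Upf3b cassette exon moved by more, on few inclusion reads. Its upstream and downstream junctions held 0 to 12 and 0 to 4 reads per vehicle U2AF1(WT) library. In sudemycin U2AF1(S34F) libraries the exon had 11 to 23 and 7 to 17 such reads. Its inclusion was 0.058 ± 0.041, 0.061 ± 0.071, 0.080 ± 0.040 and 0.135 ± 0.022 (SD, n = 5) in vehicle U2AF1(WT), sudemycin U2AF1(WT), vehicle U2AF1(S34F) and sudemycin U2AF1(S34F) marrow. Sudemycin U2AF1(S34F) libraries lay at 0.101, 0.134, 0.135, 0.143 and 0.162, and vehicle U2AF1(WT) libraries at 0.000, 0.053, 0.053, 0.068 and 0.113, with 1 library of the latter inside the range of the former. The difference of 0.077 passed for mutant with drug in the quasi-likelihood ratio test (adjusted p = 0.0762) but not in limma (0.189), and it was lost when any of 8 of the 10 libraries was left out, with adjusted p from 0.119 to 0.250; it held without vehicle U2AF1(WT) replicate 1 or sudemycin U2AF1(S34F) replicate 12. The genotype difference under sudemycin D6 was of similar size, 0.074, and did not pass (adjusted p = 0.160), but passed without sudemycin U2AF1(WT) replicate 6 (0.0139) or replicate 12 (0.0961).

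**Figure D5:**
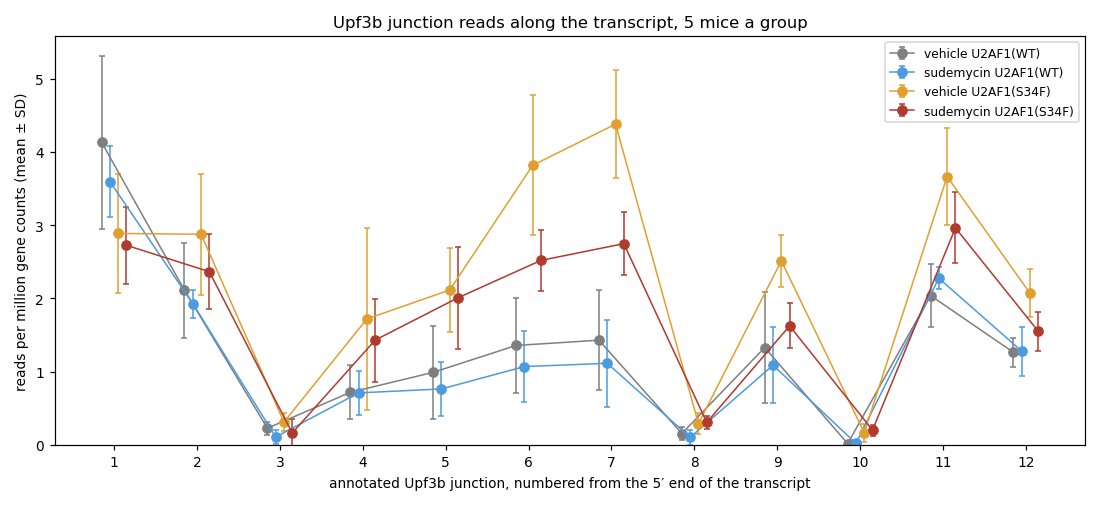
Reads at each junction, scaled to the normalised gene counts of the library as CPM is (vertical axis), for 12 Upf3b junctions, numbered from the 5′ end of the gene (horizontal axis), as mean and SD of 5 libraries per group. At the first junction both U2AF1(WT) groups lie above both U2AF1(S34F) groups, and from the second junction on each U2AF1(S34F) group lies above the U2AF1(WT) group of the same infusion.

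Upf3b junctions also differed in how the reads were spread along the gene. The share of its junction reads at the first junction (chrX:34649249-34650071) was 0.194, 0.202, 0.235, 0.242 and 0.440 in vehicle U2AF1(WT) and 0.083, 0.091, 0.095, 0.126 and 0.129 in vehicle U2AF1(S34F) libraries. Under sudemycin D6 it was 0.217, 0.218, 0.253, 0.263 and 0.308 in U2AF1(WT) and 0.110, 0.115, 0.139, 0.140 and 0.145 in U2AF1(S34F) libraries. The genotypes did not overlap under either infusion. The differences were -0.158 (adjusted p = 0.0233) and -0.122 (adjusted p = 8.4e-05) in the quasi-likelihood ratio test, and limma passed the second but not the first (0.120). The seventh junction (chrX:34639684-34640088) went the other way, from 0.086 to 0.161 in vehicle and from 0.075 to 0.131 under sudemycin D6 (adjusted p = 0.0184 and 0.0205). Scaled to the gene counts of each library as in the plot of the 12 Upf3b junctions, the level at the first junction was 4.13 ± 1.18 in vehicle U2AF1(WT) and 2.89 ± 0.81 in vehicle U2AF1(S34F) marrow, and at the seventh 1.43 ± 0.68 and 4.38 ± 0.74. The gene-level rise of Upf3b in U2AF1(S34F) marrow thus held for its downstream junctions and not for its first.

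Over the 8 genes, 204 junction shares were tested. Between genotypes 25 passed in vehicle and 35 under sudemycin D6, 12.3% and 17.2% of those tested beside 9.23% and 13.3% of all junctions. For the drug 0 passed in either genotype, beside 0.0356% and 0.152% of all junctions, with 9 unadjusted p-values below 0.05 in each by the quasi-likelihood ratio test and 0 passing in limma. With both, 22 passed (10.8%, beside 8.54%). Limma passed 8, 24 and 9 where the quasi-likelihood ratio test passed 25, 35 and 22. Of the 35 under sudemycin D6, Upf1 held 11 of its 26 tested junctions (42.3%) and Smg1 11 of 70 (15.7%). Each share is taken against the other junctions of its gene, so the calls within a gene are not independent. Smg9 junction chr7:25201613-25201940 took 0.062 of reads in sudemycin U2AF1(WT) and 0.099 in sudemycin U2AF1(S34F) libraries (adjusted p = 5.9e-05), and 0.075 and 0.092 under vehicle (adjusted p = 0.0811).

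Reads on junctions outside the annotation made up 3.80% of junction reads in Upf1, 3.23% in Smg9, 2.11% in Upf3b, 1.87% in Upf2, 1.65% in Smg5, 1.55% in Smg1, 1.502% in Smg6 and 0.523% in Upf3a, where the median of all genes was 1.13%. Smg9 was the gene in which this share passed, falling from 3.98% ± 0.44 in vehicle U2AF1(WT) to 2.59% ± 0.32 in sudemycin U2AF1(S34F) marrow (SD, n = 5, adjusted p = 0.0370, quasi-likelihood ratio test); this was 1 of 8 beside 4.18% of all genes. The call was lost without sudemycin U2AF1(S34F) replicate 2 (adjusted p = 0.106). In the other 4 comparisons 0 of 8 passed in the quasi-likelihood ratio test or in limma, with 3, 2, 0 and 0 unadjusted p-values below 0.05 in the former, beside 1.65%, 1.71%, 0.389% and 0.43% of all genes.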

How the data were processed

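Gene and junction counts were deposited as whole reads per library. Per the labels and the study's methods, the authors aligned stranded reads to mm9 with TopHat2 2.0.8; the gene counter is not given in the sources used here. No deposited column was left unused. Genes were tested on the deposited counts with edgeR 4.0.16 (filterByExpr, TMM, robust quasi-likelihood, prior count 2, R 4.3.3), each comparison on its own 10 libraries and the interaction on 20, at an FDR of 10%. DESeq2 1.42.0 and limma 3.58.1 were alternatives. CPM used TMM library sizes, and FPKM used exon lengths of the mm9 annotation. Splicing was tested with edgeR's quasi-likelihood F-test on the ratio of inclusion to exclusion reads (dispersion 0, 1 term per mouse). The text calls this the quasi-likelihood ratio test, and it is not a likelihood-ratio test. It was run on events with a mean of at least 10 reads, and on junctions, pairs of sites up to 200 bases apart and unannotated shares. The form of the splicing test was chosen with earlier results of these data known. Junction shares, site pairs and the Smg1 exon were added after the data were seen. The scripts were tested on simulated data. For splicing these had no spread between mice beyond read sampling, and larger shifts than the annotated events that passed. The simulation therefore does not cover small shifts near full inclusion. The 8 members and all lists were chosen with earlier results of these data known; the text names all 8, and other pathway genes that passed in any comparison. Beside the 30 other pathway genes, 1 further gene is not reported here.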

Additional observations from a re-analysis of the deposited data

Results flagged for a closer look

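In 80 groups of 5 libraries (expression levels and named events of the 8 genes), 9 held a library far from the other 4 by Dixon's test, which by chance marks about 1 in 20 where values can spread freely. In 5 of the 9 the other 4 libraries were all at full inclusion, so that any skipping read in 1 library gives this result and the chance share does not apply. Upf2 stood at 86.2 CPM in vehicle U2AF1(WT) replicate 2, where the other 4 lay at 96.5 CPM or above. Smg1 stood at 336 CPM in sudemycin U2AF1(WT) replicate 8, where the others lay at 382 to 401 CPM. Smg5 stood at 89.5 CPM in vehicle U2AF1(WT) replicate 4, where the others lay at 71.2 to 76.3 CPM. The remaining 6 were exon inclusion values of 1 library a little below others at or near full inclusion, and each rested on at most 19 skipping reads. For the Smg9 exon at chr7:25199958-25200069 these were 0.998 in vehicle U2AF1(S34F) replicate 11 and 0.996 in sudemycin U2AF1(S34F) replicate 9. The Smg1 exon at chr7:125300374-125300483 had 0.943 in sudemycin U2AF1(WT) replicate 10, and the Smg9 exon at chr7:25192540-25192652 had 0.981 in sudemycin U2AF1(S34F) replicate 6. The Upf1 exon at chr8:72862105-72862219 had 0.992 in sudemycin U2AF1(WT) replicate 6, and the Upf3a exon at chr8:13786147-13786253 had 0.977 in vehicle U2AF1(WT) replicate 5.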

How the results depend on the processing

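Between genotypes the count of members passing was 3 in vehicle and 2 under sudemycin D6, 2 in vehicle with no filter on low counts, and under sudemycin D6 1 with DESeq2 size factors or with no filter and 3 in DESeq2 or with junction sums. For the drug in U2AF1(S34F) marrow it was 1, but 4 in DESeq2, 2 with genes above 1 CPM or with junction sums, and 0 in a model of all 20 libraries; with both mutant and drug it was 2, 1 with no filter and 3 with junction sums. Event counts of 2, 1 and 4 (vehicle, sudemycin D6, both) became 0 in limma and with an estimated dispersion; with at least 1 read of the rarer isoform per mouse the first was 1 and the last 1, and the last was 1 in a model of all libraries. Unannotated shares under sudemycin D6 gave 1 (Upf1) with a higher read minimum. Junction shares gave 8 and 9 in limma in vehicle and with both. Without 1 library, gene counts ranged over 1 to 3, 1 to 3, 0 to 2 (drug, U2AF1(S34F)) and 1 to 2 (both), events over 1 to 4, 0 to 2, 0 to 1 (drug, U2AF1(WT)) and 0 to 2 (both), unannotated shares over 0 to 1 under sudemycin D6 and with both, and junction shares over 12 to 28, 19 to 45 and 8 to 25. The cause was not tested.

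Replicate numbers shared between genotypes allowed a replicate block on 6 vehicle and 8 sudemycin libraries. It left 1 gene in vehicle (Upf3b adjusted p = 0.166, Upf1 0.211) and 1 under sudemycin D6, 0 events in both, and 3 and 5 junction shares. Same-numbered libraries correlated at -0.048 to 0.133 in vehicle and -0.111 to 0.211 under sudemycin D6. Not every library correlated best with its own number. So few pairs cannot decide whether a number marks a shared source, which the labels do not state. Drug comparisons share no numbers.

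Over all genes, the drug in U2AF1(WT) marrow passed 453, but 844 in DESeq2, 1072 in a model of all libraries (51.2% of them higher, against 38.4%) and 141 with junction sums; in U2AF1(S34F) marrow 1588, but 788 and 906 in the last 2; and the interaction 2, but 116 in DESeq2. Over all events, 1387, 1563, 387, 838 and 3283 became 207, 243, 36, 92 and 794 in limma and 0 with an estimated dispersion, and the block left 200 and 426. The annotated Smg1 and Smg9 exons that passed rested on at most 19 skipping reads in any library.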

Other observations

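Across the 20 libraries, the genes whose log2 CPM followed Upf1 most closely among 15391 other genes were Stk35 (Pearson's r = 0.92), Gtf3c1 (0.92) and Mtap1s (0.89), given as a description, since the libraries share group differences. Among pairs of the 8 members, Smg1 and Smg6 were the most alike (0.65), followed by Upf2 and Upf3b (0.60), and Upf1 and Upf3b the most opposed (-0.54).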
